A study of Homo sapiens with 6 samples.

Results

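Metallothionein expression was examined in PC3, a human prostate cancer line established from a metastasis to bone, after transfection with siRNA directed against CITED2. The genes were taken by name and comprised the 7 metallothionein rows MT2A, MT1X, MT1E, MT1F, MT1G, MT1M and MT1L together with MTF1, the gene of their metal-sensing transcription factor, which makes 8 of the 24462 gene symbols in the count files. Each of the 8 symbols had a single row, and all 8 passed the filter on low counts. RNA-seq was available for 3 libraries labelled si-Control, from cells given a non-targeting siRNA, and 3 labelled si-CITED2. Both groups received 80 nM siRNA for 72 h and were grown in RPMI1640 with heat-inactivated FBS, so the control cells had also been transfected. The design rests on a single cell line and, by the study's methods, on 1 siRNA sequence against CITED2, and the bulk measurements cannot tell a change in every cell from a change in some of the cells.

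Metallothioneins are small cytosolic proteins whose many cysteines bind zinc and copper, and also toxic metals such as cadmium. When free zinc rises, it binds the zinc fingers of MTF1, which then occupies metal response elements (MREs) in the metallothionein promoters and recruits coactivators including p300. Glucocorticoids, oxidants and inflammatory cytokines are further known inducers. In the prostate, an organ whose healthy epithelium stores large amounts of zinc, metallothioneins have been studied mainly as markers of altered zinc handling in cancer. CITED2 itself is known to bind p300.

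The metallothionein genes form a cluster on the long arm of chromosome 16. In GENCODE 29 (GRCh38) MT2A starts at 56608199, MT1X ends at 56684196, and 13 of the metallothionein loci counted here lie between these positions, a span of 75998 bases. MTF1 lies elsewhere, on chromosome 1 from 37809567 to 37859620 on the minus strand. The copies are close in sequence, which matters for how reads were assigned to them. The coding sequences of MT2A, MT1X, MT1E and MT1M are shown because the first 3 carried the clearest difference between the groups and the fourth was decided by a single library. Each has 186 bases, and capitals mark the bases that differ from MT2A.
MT2A: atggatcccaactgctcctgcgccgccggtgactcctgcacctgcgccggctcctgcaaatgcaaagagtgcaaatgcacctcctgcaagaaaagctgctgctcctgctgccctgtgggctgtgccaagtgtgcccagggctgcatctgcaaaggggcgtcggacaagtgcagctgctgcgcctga
MT1X: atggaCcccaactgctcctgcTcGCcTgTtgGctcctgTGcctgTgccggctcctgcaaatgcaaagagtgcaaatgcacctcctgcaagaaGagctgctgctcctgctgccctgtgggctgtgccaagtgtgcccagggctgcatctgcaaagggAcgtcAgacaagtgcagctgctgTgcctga
MT1E: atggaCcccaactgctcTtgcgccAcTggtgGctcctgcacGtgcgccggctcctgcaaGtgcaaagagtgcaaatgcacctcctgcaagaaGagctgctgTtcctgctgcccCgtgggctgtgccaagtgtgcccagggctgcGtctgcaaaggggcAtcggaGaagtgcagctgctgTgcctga
MT1M: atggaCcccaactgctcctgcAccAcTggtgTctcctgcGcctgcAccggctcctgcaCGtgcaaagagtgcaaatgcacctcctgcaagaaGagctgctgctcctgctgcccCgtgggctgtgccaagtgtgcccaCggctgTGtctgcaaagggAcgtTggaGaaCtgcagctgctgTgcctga
MT1X and MT1E each differed from MT2A at 14 bases (92.5% identity) and MT1M at 19 (89.8%). All 4 encode 61 amino acids, of which 20 are cysteines. MT1G had a coding sequence of 189 bases and was not compared base by base. MT1L is annotated as a transcribed pseudogene, so its reads are RNA without a known protein.

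The promoters in the RefSeq table (GRCh38.p14), which held MT2A, MT1X and MTF1 of the 8 genes, were searched for the MRE core. It was written as TGCACNC or TGCGCNC and read on both strands over the 250 bases before the RefSeq start. The upstream sequences of MT2A (chr16:56608334-56608583, plus strand) and MT1X (chr16:56682220-56682469, plus strand) are shown because these genes moved together below, with the matches in capitals.
MT2A: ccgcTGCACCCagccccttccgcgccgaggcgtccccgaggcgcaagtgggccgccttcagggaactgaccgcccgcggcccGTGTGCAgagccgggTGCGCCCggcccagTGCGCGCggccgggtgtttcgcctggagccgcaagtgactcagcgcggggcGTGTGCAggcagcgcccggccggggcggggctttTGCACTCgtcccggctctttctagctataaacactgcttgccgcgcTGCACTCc
MT1X: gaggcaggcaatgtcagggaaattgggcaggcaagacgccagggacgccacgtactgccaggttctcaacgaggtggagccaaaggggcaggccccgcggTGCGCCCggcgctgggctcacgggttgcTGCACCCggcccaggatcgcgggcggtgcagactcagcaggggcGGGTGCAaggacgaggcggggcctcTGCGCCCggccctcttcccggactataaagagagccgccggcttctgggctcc
MT2A held 7 matches, 5 forward and 2 reverse, and MT1X held 4, 3 forward and 1 reverse. No match overlapped another. Of the 35116 promoters of this length, 24.8% held at least 1 match, 0.37% held at least 4 and 0.0313% held at least 7. The MTF1 window held 0 matches. The window of MT1H, a metallothionein gene outside the 8, held 8 matches, although MT1H was counted at most 16 times in any library. A match is a run of letters and was not tested as a binding site.

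The total count per library ranged from 19508925 to 28936374, so that 3 counts, the smallest number taken as detectable, corresponded to 0.104 to 0.154 CPM, the usual read count divided by library total. All CPM values were scaled to totals adjusted by TMM. The targeted gene was checked first. The si-Control libraries held 966, 1108 and 657 CITED2 reads (values are given in the order of replicates 1 to 3 throughout) and the si-CITED2 libraries 893, 964 and 898, or 35.7 ± 2.60 CPM and 42.3 ± 3.49 CPM (SD, n = 3 each). CITED2 mRNA was thus not lower in the libraries labelled si-CITED2 (log2 fold change 0.24, SE 0.07, adjusted p = 0.0363 in edgeR's quasi-likelihood test). The adjusted p rose to 0.0536, 0.141, 0.154 and 0.0846 when si-Control replicate 1, si-Control replicate 3, si-CITED2 replicate 1 and si-CITED2 replicate 3, respectively, were left out. Every direction given below compares libraries by these labels, which the mRNA of the target did not bear out. The study also examined CITED2 protein by immunoblot to check the knockdown, a measurement not analysed here. Of the PC3 markers, KRT8, KRT18, VIM and EPCAM were abundant, with EPCAM the lowest (119 CPM in si-Control and 94.4 CPM in si-CITED2). All 4 passed the test, 3 higher and 1 lower in si-CITED2, beside 9.36% called higher and 8.09% called lower among all genes tested. Of the prostate epithelial genes, TMPRSS2 was low (0.279 CPM in si-Control and 0.0307 CPM in si-CITED2), KLK3 had at most 2 reads in a library and KLK2 had 0. Among 8 markers of fibroblasts, endothelium and blood, COL1A1 reached 5.17 and 6.48 CPM, and the other 7 averaged at most 0.319 CPM in either group.

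A single library stood apart within the cluster itself. In si-CITED2 replicate 3, MT1M was counted 919 times against 42 and 68 times in si-CITED2 replicates 1 and 2, MT1JP 883 times against 17 and 34, MT1A 990 times against 132 and 158, and MT1DP 1139 times against 3 and 16. These loci are neighbours. The 6 loci from MT1L to MT1DP, in the order MT1L, MT1E, MT1M, MT1JP, MT1A and MT1DP (chr16:56617476-56644786, GRCh38), each held more reads than the mean of the other 2 si-CITED2 libraries predicted at the same depth. The surplus was 864 reads for MT1L, 780 for MT1E, 866 for MT1M, 859 for MT1JP, 848 for MT1A and 1130 for MT1DP. It was thus nearly the same number of reads at 5 of these loci, although their usual levels differed widely. Beyond MT1DP the surplus ended, with differences of 0 reads for MT1B, -12 for MT1F, 3 for MT1G, -1 for MT1H, 1 for MT1IP and -19 for MT1X. On the other side of MT1L, MT2A held 1694 reads more than predicted, the largest difference in reads of the 14 loci compared, at 1.13 times the predicted count. Reads that fit several copies could be counted more than once, so the exact sharing of sequence was measured in the GENCODE 29 transcripts. Of 3726 distinct stretches of 50 bases in the transcripts of the 6 loci, 113 occurred in at least 2 of them and 0 in more than 2, and no stretch of 100 bases was shared. Only exact matches in these transcripts were measured, so whether reads were counted more than once was not tested. The read length and the counting rule were not given in the sources used here, and no cause of the surplus was tested. Results for these loci are therefore given with and without this library.

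**Figure D1:**
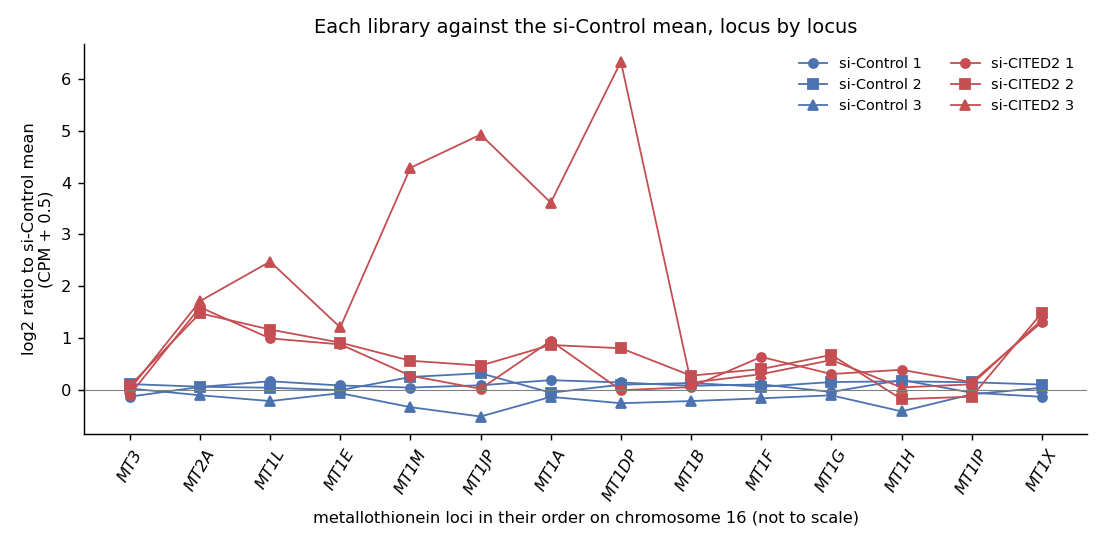
Log2 ratio of each library to the si-Control mean (CPM plus 0.5) for 14 metallothionein loci in chromosomal order, in blue for si-Control and red for si-CITED2, with 1 symbol per replicate. si-CITED2 replicate 3 leaves the other si-CITED2 libraries from MT1L to MT1DP and rejoins them at MT1B, while all 3 si-CITED2 libraries lie above all si-Control libraries at MT2A, MT1E and MT1X.

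MT2A, the most abundant metallothionein of these cells, was about 3 times higher in the libraries labelled si-CITED2, and MT1X and MT1E, copies of the MT1 type with the same metal-binding role, rose with it. The si-Control libraries held 5785, 6407 and 3910 reads of MT2A, against 12347, 14474 and 14848 in the si-CITED2 libraries. This gave 218, 219 and 195 CPM in si-Control against 636, 587 and 690 CPM in si-CITED2. The groups were far apart, with the lowest si-CITED2 value far above the highest si-Control value. The log2 fold change was 1.60 (SE 0.06, adjusted p = 1.72e-11 in edgeR's quasi-likelihood test), a 3.02-fold difference, and 2.90-fold without si-CITED2 replicate 3.

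MT1X lay at 8.82, 10.5 and 10.0 CPM in si-Control and at 24.9, 28.2 and 25.7 CPM in si-CITED2. Its 3 si-CITED2 values were close together, and si-CITED2 replicate 3 lay between the others. The log2 fold change was 1.43 (SE 0.09, edgeR adjusted p = 1.07e-08), or 2.69-fold. MT1E lay at 85.5, 80.3 and 77.1 CPM in si-Control and at 149, 152 and 187 CPM in si-CITED2. The highest of these was replicate 3, which holds the surplus described above. The log2 fold change was 1.01 (SE 0.08, edgeR adjusted p = 5.60e-08), or 2.01-fold. Without that library MT1E was still higher (log2 fold change 0.90, SE 0.06, edgeR adjusted p = 8.38e-08), or 1.86-fold.

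**Figure D2:**
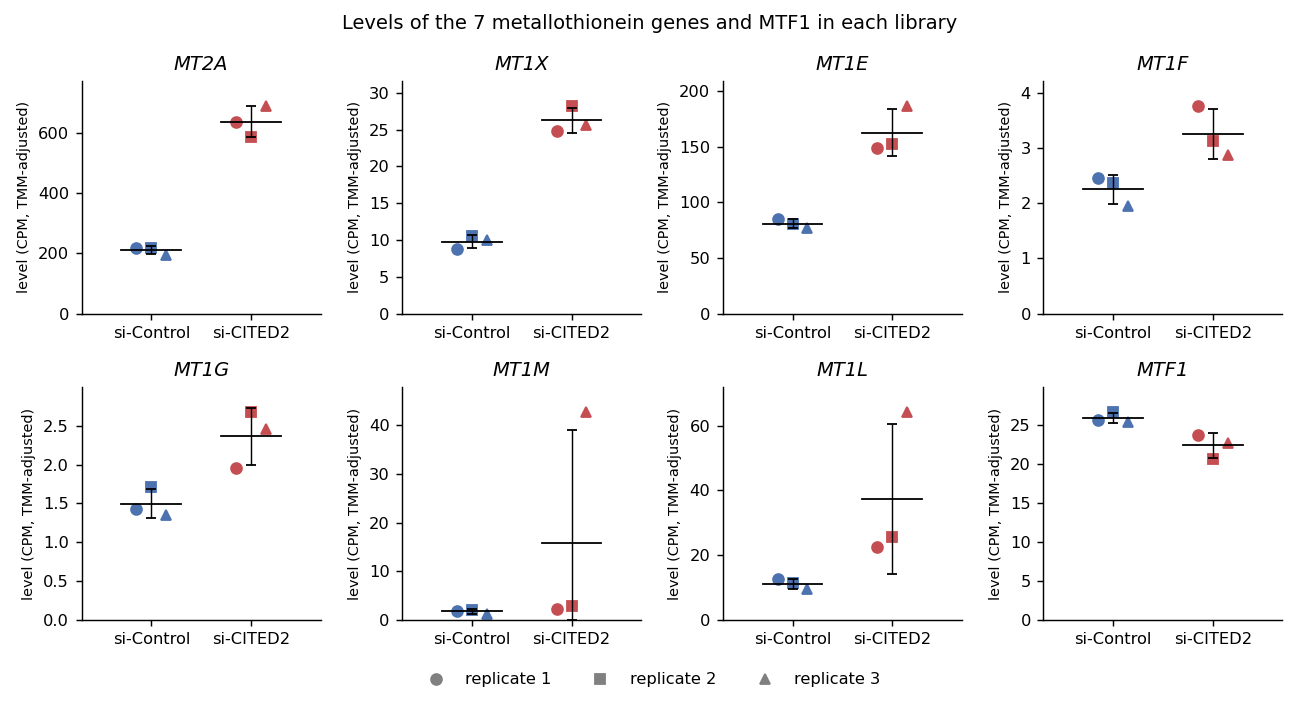
Level of each gene in CPM (TMM-adjusted, linear axes from 0) in the 3 si-Control (blue) and 3 si-CITED2 (red) libraries, with horizontal lines at the group means and bars of 1 SD (n = 3), the lower bar of MT1M ending at 0. For every metallothionein the 3 si-CITED2 points lie above the 3 si-Control points, MT1M and MT1L have a high triangle for replicate 3, and MTF1 shows the opposite order.

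MT1L, the transcribed pseudogene, was also higher, but its size depended on the library with the surplus. It lay at 12.5, 11.4 and 9.49 CPM in si-Control and at 22.6, 25.5 and 64.2 CPM in si-CITED2. The first 2 si-CITED2 libraries lay above every control library and the third was far above them. With all 6 libraries the log2 fold change was 1.74 (SE 0.28, edgeR adjusted p = 0.000342), or 3.34-fold. Without si-CITED2 replicate 3 it was 1.11 (SE 0.12, edgeR adjusted p = 7.51e-06), or 2.15-fold.

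MT1M, a coding copy of the MT1 type, passed the test with all 6 libraries but not without that library. Its reads numbered 47, 62 and 25 in si-Control against 42, 68 and 919 in si-CITED2, or 1.77, 2.12 and 1.25 CPM against 2.16, 2.76 and 42.7 CPM. The lowest si-CITED2 value was only just above the highest si-Control value. The log2 fold change was 3.17 (SE 0.83, edgeR adjusted p = 0.0131) with all libraries and 0.51 (SE 0.27, 95% interval -0.06 to 1.08, edgeR adjusted p = 0.267) without si-CITED2 replicate 3. The call was also lost without si-Control replicate 1 (edgeR adjusted p = 0.0509).

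MT1F and MT1G, low-level copies of the same family, did not pass the test over all genes. MT1F lay at 2.45, 2.36 and 1.95 CPM in si-Control and at 3.76, 3.12 and 2.88 CPM in si-CITED2 (log2 fold change 0.52, SE 0.19, 95% interval 0.11 to 0.92, edgeR adjusted p = 0.0738). MT1G lay at 1.43, 1.71 and 1.35 CPM in si-Control and at 1.96, 2.68 and 2.46 CPM in si-CITED2 (log2 fold change 0.66, SE 0.22, 95% interval 0.18 to 1.13, edgeR adjusted p = 0.0535). In both genes the groups did not overlap, but each library held at most 77 reads of MT1F and 66 of MT1G. MT1G passed the test when si-CITED2 replicate 1 was left out (edgeR adjusted p = 0.0409).

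MTF1, the zinc-finger activator of these genes, had the opposite order of groups. It lay at 25.7, 26.7 and 25.5 CPM in si-Control and at 23.8, 20.7 and 22.7 CPM in si-CITED2. All 3 si-CITED2 values were below all 3 si-Control values, by a small margin. The log2 fold change was -0.22 (SE 0.08, 95% interval -0.38 to -0.05) and did not pass the test (edgeR adjusted p = 0.0631), although it did without si-CITED2 replicate 1 (log2 fold change -0.26, edgeR adjusted p = 0.0454). Per library there were 8.48, 8.20 and 7.67 reads of MT2A for each read of MTF1 in si-Control, against 26.7, 28.3 and 30.4 in si-CITED2. This ratio was bound to separate the groups, since neither gene overlapped between them and the genes moved in opposite directions. Its separation therefore adds nothing to the values of each gene, and no p is given.

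**Figure D3:**
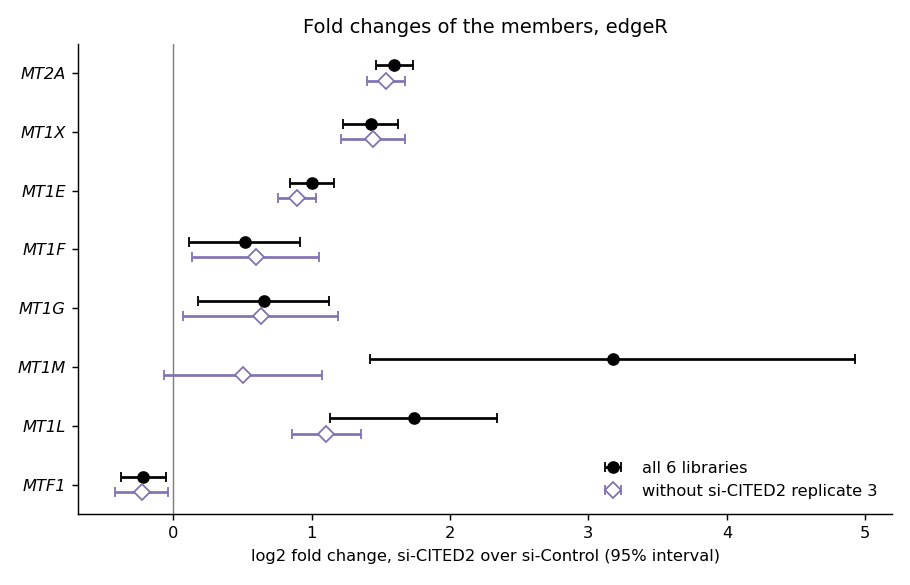
Log2 fold change of each gene, si-CITED2 over si-Control, with 95% intervals from edgeR, for all 6 libraries (filled circles) and without si-CITED2 replicate 3 (open diamonds). MT2A, MT1X and MT1E barely move between the fits, whereas MT1M goes from 3.17 to 0.51 and MT1L from 1.74 to 1.11.

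In all, 5 of the 7 metallothioneins were called higher and 0 lower at an adjusted p under 0.05, beside 9.36% called higher and 8.09% called lower among the 16314 genes tested. At an unadjusted p under 0.05 all 7 were higher and MTF1 was lower, but the share of all genes at that threshold was not counted. DESeq2 gave an adjusted p for 6 of the 7. It called 4 of these higher and 0 of the 8 genes lower, beside 1351 genes called higher and 1203 lower in that fit. Without si-CITED2 replicate 3, MT2A, MT1X, MT1E and MT1L remained, beside 7.12% of genes called higher and 5.37% called lower in that fit. The median log2 fold change of the 7 was 1.43, against -0.00137 over all genes tested. In all 7 the 3 si-CITED2 values lay above the 3 si-Control values, which held for 16.4% of all genes tested, and MTF1 was among the 16.1% with the reverse order, so that 32.5% of genes had groups without overlap in one direction or the other.

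The proportions of the 3 genes with the clearest difference were compared within libraries. For each read of MT1E there were 2.55, 2.73 and 2.53 reads of MT2A in si-Control, against 4.27, 3.85 and 3.69 in si-CITED2. The groups did not overlap (exact permutation test, 2-sided p = 0.1, the smallest that 3 libraries against 3 allow). The si-CITED2 library with the surplus had the lowest of these 3 ratios. The ratio of MT2A to MT1X, by contrast, overlapped between the groups (21.7 ± 2.73 in si-Control and 24.4 ± 3.21 in si-CITED2, SD, n = 3 each, exact permutation test, 2-sided p = 0.3).

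Levels were compared between genes only after division by length, as CPM per kilobase of annotated exon (GENCODE 29). In si-Control the order was MT2A (213 ± 13.6), MT1E (77.0 ± 4.06), MT1L (27.1 ± 3.74), MT1X (11.9 ± 1.05), MTF1 (3.26 ± 0.0806), MT1F (3.07 ± 0.365), MT1M (2.07 ± 0.528) and MT1G (2.0 ± 0.251), each with its SD over 3 libraries. MTF1 and MT1F overlapped, as did MT1M and MT1G, and the other neighbours did not. In si-CITED2 MT2A reached 643 ± 52.2 and MT1E 155 ± 20 CPM per kilobase. MT1M moved up the order only with replicate 3 (19.2 ± 28.0 with it, 2.97 as the mean of the other 2 libraries). The annotated exons of MT1L cover 411 bases and those of MT2A 991 bases, and the annotation the authors counted on may differ.

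Summing the copies avoids the question of which copy a read belongs to, but a read counted at several copies would enter the sum more than once. The 16 metallothionein rows of the files together gave 337, 333 and 300.2 CPM in si-Control and 849, 811 and 1156 CPM in si-CITED2, a ratio of group means of 2.90, or 2.57 without si-CITED2 replicate 3. The 10 rows outside the stretch from MT1L to MT1DP gave 232, 235 and 209 CPM in si-Control and 668, 622 and 722 CPM in si-CITED2, a ratio of 2.98, or 2.86 without that library. Replicate 3 was the highest si-CITED2 library in this sum too, through MT2A. Of all metallothionein reads, MT2A held 65.2% ± 0.473 in si-Control and 69.0% ± 8.15 in si-CITED2, where it held 73.7% on average without replicate 3. MT1E held 25.1% ± 0.850 in si-Control and 17.5% ± 1.30 in si-CITED2 (SD, n = 3 each).

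The remaining metallothionein loci were sparse. MT1A, a coding copy of the MT1 type, lay at 3.81, 3.14 and 2.95 CPM in si-Control and at 6.80, 6.41 and 46.0 CPM in si-CITED2. It was called higher with all libraries (log2 fold change 2.57, SE 0.57, edgeR adjusted p = 0.0046) and without si-CITED2 replicate 3 (log2 fold change 0.99, SE 0.17, edgeR adjusted p = 0.000968). The pseudogene MT1JP was called only through that library (log2 fold change 3.99, SE 1.05, edgeR adjusted p = 0.0136, against 0.36, SE 0.40, edgeR adjusted p = 0.65 without it), and its call was also lost without si-Control replicate 1 (edgeR adjusted p = 0.0531). The pseudogene MT1DP did not pass the filter on low counts, since only replicate 3 of si-CITED2 held more than 16 reads. MT1H did not pass the test (log2 fold change 0.11, SE 0.46, edgeR adjusted p = 0.905). MT1B, MT1HL1, MT1IP and MT3, the brain-type metallothionein, were counted at most 6 times in any library, and MT4, the copy of squamous epithelia, had 0 counts in all 6.

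Genes that move or sense metals were followed as lists. Of the zinc exporters (SLC30A family, which take zinc out of the cytosol), 7 of 10 were testable. Only SLC30A7, which loads zinc into the secretory pathway, was called, and it was higher (log2 fold change 0.23, SE 0.07, edgeR adjusted p = 0.022). This call was lost in 3 of the 6 fits that left out a library, those without si-Control replicate 1, si-Control replicate 2 and si-CITED2 replicate 2 (edgeR adjusted p = 0.0702, 0.0605 and 0.125). SLC30A1, the exporter at the plasma membrane and a textbook target of MTF1, was looked at after its values were seen and did not pass (9.83 ± 0.0533 CPM in si-Control, 9.25 ± 0.235 CPM in si-CITED2, log2 fold change -0.09, SE 0.10, edgeR adjusted p = 0.649). Of 11 testable zinc importers (SLC39A family), 2 were called, both higher. With 1 of 7 exporters and 2 of 11 importers called, beside 17.4% of all genes tested called in either direction and 9.36% called higher, neither count stood out from the background. SLC39A7, which releases zinc from the endoplasmic reticulum, rose from 115 ± 6.46 to 154 ± 4.76 CPM (log2 fold change 0.41, SE 0.05, edgeR adjusted p = 3.25e-05). SLC39A13, which acts in the secretory pathway, had a log2 fold change of 0.41 (SE 0.11, edgeR adjusted p = 0.0135), and its call was lost without si-Control replicate 3 or si-CITED2 replicate 2 (edgeR adjusted p = 0.0663 and 0.0818). The median log2 fold change was 0.0256 for the exporters and 0.0795 for the importers.

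Of 10 copper genes 1 was called, beside 17.4% of all genes tested called in either direction. This was ATP7A, the copper-exporting ATPase, which was higher (log2 fold change 0.44, SE 0.10, edgeR adjusted p = 0.00546). Of 10 iron genes, 3 were called higher and 3 lower, beside 9.36% called higher and 8.09% called lower among all genes tested. HMOX1, which breaks down haem, rose from 19.9 ± 1.51 to 32.6 ± 3.02 CPM (SD, n = 3, log2 fold change 0.72, edgeR adjusted p = 1.21e-05). ACO1, the iron-sensing aconitase, and STEAP3, a ferric reductase of endosomes, were also higher (log2 fold changes 0.57 and 0.36). TFRC, the transferrin receptor, fell by 0.34 on the log2 scale (edgeR adjusted p = 0.00066). FTL, the ferritin light chain, and PCBP1, an iron chaperone, had log2 fold changes of -0.20 and -0.15, and both calls were lost without si-CITED2 replicate 3 (edgeR adjusted p = 0.11 and 0.146), as well as in 3 (FTL) and 4 (PCBP1) of the other 5 fits that left out a library.

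None of the 8 factors and coactivators known at metallothionein promoters (EP300, CREBBP, SP1, USF1, USF2, NR3C1, STAT3 and NFE2L2) passed the edgeR test, and their log2 fold changes ran from -0.0917 to -0.00151. At an unadjusted p under 0.05 the count was also 0, but the share of all genes at that threshold was not counted. With DESeq2 it was 0 as well, beside 1351 genes called higher and 1203 lower in that fit. At an adjusted p under 0.05 the edgeR test called 17.4% of all genes tested in either direction. Beside that share, 0 of 8 did not stand out from the background. The 2 with the most reads were STAT3 (175 ± 7.08 and 168 ± 3.01 CPM) and SP1 (172 ± 4.40 and 162 ± 4.87 CPM). Of 9 testable glucocorticoid-induced genes, 3 were called higher and 2 lower, beside 9.36% called higher and 8.09% called lower among all genes tested. SGK1, a kinase that controls sodium transport, rose from 4.79 ± 0.557 to 14.6 ± 1.62 CPM (log2 fold change 1.59, edgeR adjusted p = 1.10e-07). DUSP1, a MAP kinase phosphatase, and NFKBIA, the inhibitor of NF-kappaB, were higher (log2 fold changes 0.90 and 0.35). CEBPD, a transcription factor, and FKBP5, a chaperone partner of the glucocorticoid receptor, had log2 fold changes of -0.51 and -0.16. The FKBP5 call (edgeR adjusted p = 0.0346) was lost in all 6 fits that left out a library.

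The genes usually induced by cadmium or arsenite alongside the metallothioneins mostly did not share their direction. Of 10, only HMOX1, already counted among the iron genes, was called higher and 6 were called lower. Among all genes tested, 9.36% were called higher and 8.09% lower. The cause of this difference in direction was not tested. SRXN1, which repairs oxidized peroxiredoxins, fell from 199.9 ± 7.67 to 149 ± 2.40 CPM (log2 fold change -0.42, edgeR adjusted p = 9.44e-06). TXNRD1, the cytosolic thioredoxin reductase, fell from 1952 ± 9.44 to 1533 ± 26.3 CPM (log2 fold change -0.35, edgeR adjusted p = 1.85e-05). The near-identical heat shock genes HSPA1A and HSPA1B, whose reads may be shared, had log2 fold changes of -0.28 and -0.31, and GCLC, of glutathione synthesis, had -0.27. The sixth, SLC7A11, the cystine importer, fell outside the naming rule and is given because its call (edgeR adjusted p = 0.0468) was lost without si-CITED2 replicate 3 (edgeR adjusted p = 0.159). The median log2 fold change of this list was -0.222, against 1.43 for the metallothioneins.

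**Figure D4:**
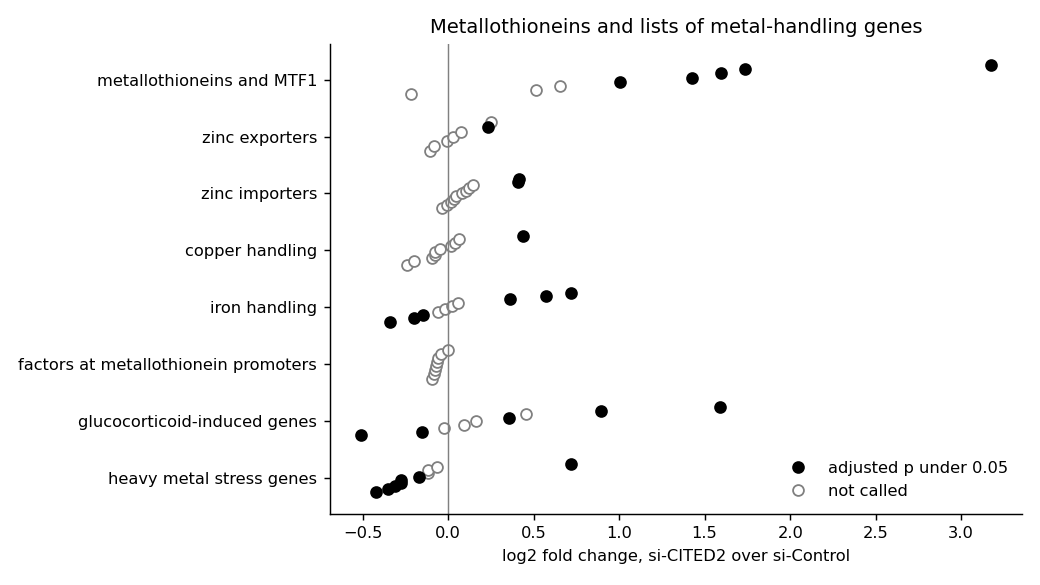
Log2 fold change, si-CITED2 over si-Control, of the 7 metallothioneins, MTF1 and every tested gene of 7 lists (zinc exporters and importers, copper, iron, promoter factors, glucocorticoid and heavy metal genes), filled where the edgeR adjusted p was under 0.05. The metallothioneins reach values from 0.52 to 3.17, with MTF1 as the only point of that row below 0, while the genes of these lists lie mostly between -0.5 and 0.5, with SGK1 the farthest of them at 1.59.

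The genes whose levels followed MT2A most closely over the 6 libraries, by Pearson's r of log2(CPM + 0.5) among all genes tested, were IL6 (r = 0.9996), NEDD9 (0.9987), GLI2 (0.9986), FBXO32 (0.9981) and PLOD2 (0.9976). All 6 points share the division into 2 groups. NEDD9 was low in si-Control, at 0.302, 0.342 and 0.15 CPM, the last of these at the detection limit of 3 counts. Its r therefore leaned on few control reads. IL6, the inflammatory cytokine, lay at 2.23, 2.25 and 2.0 CPM in si-Control and at 6.85, 6.49 and 7.21 CPM in si-CITED2 (log2 fold change 1.66, SE 0.15, edgeR adjusted p = 6.04e-07). Within si-CITED2, replicate 3 was highest and replicate 2 lowest in each of the 5 genes, as in MT2A. They were selected for following MT2A over these same libraries, so the shared order is no separate evidence of a link. PLOD2, a collagen lysyl hydroxylase, was the most abundant of the 5, at 400.1, 402 and 397 CPM in si-Control and 605, 598 and 616 CPM in si-CITED2.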

How the data were processed

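RNA of 6 PC3 libraries (SMARTer mRNA-seq kit) was measured, and the study performed the transfections 3 times independently. The files the authors deposited hold raw counts, 1 value per gene symbol and library. The submitters' processing notes name TopHat, edgeR and hg19, and the counting program, strand setting and read length were not given in the sources used here. Of 25737 rows, 1275 repeated a symbol with a smaller total and were set aside (0.082% of counts), leaving 24462. Counts were filtered with filterByExpr (16314 genes kept), normalized by TMM and tested with edgeR 4.0.16 in R 4.3.3 (glmQLFit, glmQLFTest, no block, Benjamini-Hochberg over all genes tested). SEs came from the F statistic. Ratios were tested in SciPy 1.17.1. Motifs, lengths and shared stretches came from RefSeq and GENCODE 29 by symbol, and no coordinate was carried over from hg19. The genes and lists (lists: PC3 and other cell markers, other metallothionein loci, zinc, copper, iron, promoter factors, glucocorticoid and heavy metal genes) were chosen with earlier results of these data known, and some of the marker genes are not reported here. Named were all 8 genes, other metallothionein loci, up to 6 called genes per list (or the 2 with most reads) and the 5 genes most like MT2A. On counts simulated for this comparison over 16165 genes, 85 of 100 changes of 2 times and 76 of 100 of 1.5 times were recovered, with 12 false calls. No replicate pair agreed within counting error (chi-square over degrees of freedom at least 2.8). Alternatives were RLE size factors, library size alone, DESeq2 1.42.0, 2 other filters, a replicate block, summed repeated symbols and leaving out each library.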

Additional observations from a re-analysis of the deposited data

How the results depend on the processing

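MT2A, MT1X, MT1E, MT1L and MT1A were called higher in all 13 alternatives, with log2 fold changes from 1.54 to 1.65, 1.35 to 1.48, 0.90 to 1.06, 1.11 to 1.99 and 0.99 to 3.0. MT1F was called in 0 of 13 (edgeR or DESeq2 adjusted p from 0.0683 to 0.225). MT1G was called in 2 of 13, without si-CITED2 replicate 1 and with at least 10 counts in every library. DESeq2 gave no adjusted p for MT1M. The number of the 8 genes called lower went from 0 to 1 with library size alone, through MTF1 (log2 fold change -0.23, edgeR adjusted p = 0.0463), and from 0 to 1 over the fits that left out a library, the 1 being MTF1 without si-CITED2 replicate 1. Of the genes in the metal, glucocorticoid and stress lists, 11 were called lower, and 7 to 9 when a library was left out, with 7 without si-Control replicate 2, si-CITED2 replicate 2 or si-CITED2 replicate 3. The CITED2 log2 fold change was 0.22 with library size alone (edgeR adjusted p = 0.0518) and 0.17 to 0.29 when a library was left out. MT1H changed sign without si-Control replicate 3 (-0.17) and without si-CITED2 replicate 1 (-0.22), in a range up to 0.37 when other libraries were left out. Over all genes tested, the deviations of same-numbered libraries from their group means were not correlated above 0.1 (r of -0.037, 0.0462 and -0.0115), so the numbers were not taken as pairs, although a few rows were high in both replicate 3 libraries. With the replicate block, 1405 genes were called higher and 1154 lower, against 1527 and 1319, and 5 of the 8 genes were called higher as before. In the lists, 8 genes were called lower with the block against 11, and FKBP5 and PCBP1 were among the calls lost. The causes of these shifts were not tested. Copies counted at most 77 times per library (MT1F, MT1G) limit what 3 libraries a group can show.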

Other observations

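Other rows were searched for a library more than 4 times above both others of its group (CPM plus 0.5), a search chosen after the metallothionein counts had been seen. It found 8 rows in si-CITED2 replicate 3, 5 in si-Control replicate 3, 2 in si-Control replicate 2 and 0 in the other 3 libraries. MT1M, MT1JP, MT1A and MT1DP were 4 of the 8 in si-CITED2 replicate 3. The others were ACRC (529 counts against 104 and 51), OTOA (750 against 120 and 60), RRN3P1 (367 against 50 and 28) and LOC101927814 (85 against 11 and 5). OTOA, RRN3P1 and LOC101927814 also stood apart in si-Control replicate 3, with 960, 488 and 113 counts, whereas the metallothionein rows did not, with 25 counts of MT1M, 9 of MT1JP, 59 of MT1A and 1 of MT1DP there.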
